A study of Mus musculus with 10 samples.

Results

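The jejunum, ileum and distal colon of aged and young mice were compared with 6 of the 10 expression arrays of the series, chosen by tissue and age as labelled. At 28 months the animals were 9 male ICR mice obtained at 8 months of age, and at 4 months they were 6 male ICR mice obtained at 2 months. ICR is an outbred stock, both ages ate the AIN-93 diet, and no allele, transgene or agent is given for any group. Equal amounts of RNA from the mice of an age were pooled for each tissue, so every segment and age had 1 array, and the other 4 arrays held liver and spleen of both ages. Pools of outbred animals differ in their genotypes, and the effect of the animals that happened to be pooled and that of age cannot be told apart. The 3 segments of an age came from mice of the same pool, so they are 3 sites in 1 set of animals, not 3 sets of animals.

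The jejunum takes up most nutrients, the ileum recovers bile acids, and the distal colon absorbs water and houses most gut bacteria. All 3 line their wall with an epithelium renewed from crypt stem cells, over connective tissue rich in lymphocytes and plasma cells and over layers of smooth muscle. Gut epithelium also makes its own cholesterol, through a chain of enzymes whose genes are switched on together by SREBP-2, the product of Srebf2, when sterols in the cell are low. When sterols are high, the nuclear receptor LXR instead switches on exporters such as Abca1, Abcg5 and Abcg8.

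Values are signals in arbitrary units, scaled alike on every array, with a floor of 111 units under which a signal was not read. A ratio is log2 of the 28-month signal divided by the 4-month signal in 1 segment, so 0.58 is 1.5-fold. Where 1 age lay under the floor, the ratio is a bound. The labels of ileum and distal colon were each borne out by a marker gene. Fabp6, an ileal bile acid binding protein, gave 35830.5 units in ileum at 28 months and 20178 units there at 4 months. Hoxb13, a gene of the hind end, gave 8492 units in distal colon at 28 months and 6355 units at 4 months. The ileum array of 4 months also carried genes of the upper small intestine. The 12 such genes summed to 86991 units in jejunum, 18524 in ileum and 636 in distal colon at 28 months, against 120625, 114501 and 684 units at 4 months. Lct, the lactase gene, gave 3600 units in jejunum and 92.1 in ileum at 28 months, against 12629 and 14054 units at 4 months. It therefore did not set jejunum apart from ileum at 4 months. Pdx1, another of the 12, named after its values were seen, did, at 1184 units in jejunum and 41.1 in ileum. The 9 ileal marker genes summed to 6983 units in jejunum, 121263 in ileum and 18255 in distal colon at 28 months. At 4 months their sums were 18651, 75649.5 and 21592 units. Cubn was counted in both sets. It gave 73.1 units in jejunum, 9856 in ileum and 50.8 in distal colon at 28 months. At 4 months it gave 3631, 8281 and 131 units, so much of the upper small intestinal sum of the aged ileum was Cubn. Ratios in jejunum were above 0 for 0 of the 9 ileal marker genes and below 0 for 6, where 55% and 42.8% of all genes tested were. In distal colon 2 were above and 6 below, against 53.9% and 43.6% of all genes. No sampling position along the intestine is given in the sources used here. Position and age therefore cannot be told apart in any segment for genes graded along the gut. Pancreatic enzyme genes were present in jejunum at both ages, with Cela2a at 9811 units at 28 months and 10404 units at 4 months. The intestinal arrays of 28 months are numbered apart from the other 7, and any separate preparation cannot be told apart from age.

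Few genes differed by 1.5-fold in the same direction in every segment. Of 11643 genes above the floor in each segment, 18 (0.155%) were at least 1.5-fold higher at 28 months in jejunum, ileum and distal colon, and 6 (0.0515%) were at least 1.5-fold lower. In single segments 1.97% were higher and 2.62% lower in jejunum, 5.09% and 3.62% in ileum, and 2.18% and 2.09% in distal colon. A limma fit with segment as a block, in which the segments stand in for replicates, called 0 of 12233 genes (0%) in either direction after Benjamini-Hochberg adjustment, with a lowest adjusted p of 0.591. At an unadjusted p under 0.05 it held 971 genes (7.94%), 647 higher and 324 lower at 28 months. The values below are therefore descriptions of 6 arrays. An exact permutation test of 3 against 3 that ignores the pairing by segment could not have gone below p = 0.1 for any single gene. A test that keeps the pairing has fewer rearrangements, so its lowest possible p is higher. Across the 12233 genes the ratios of jejunum and ileum had a Pearson r of 0.36, those of jejunum and distal colon 0.16, and those of ileum and distal colon -0.08. Genes are not independent replicates, and the segments share their animals and the numbering of their arrays.

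Genes of cholesterol synthesis formed one group of related genes among the 18. Idi1, Fdft1 and Sqle, enzymes of the pathway, and Srebf2, which encodes its main activator, were all higher at 28 months in the 3 segments. Promoters of the pathway are shown because its genes differed together and because the known sites of their activators can be read in them. The stretches are the 250 bases before the transcription start in RefSeq (GRCm38.p6), which need not be the build behind the arrays, and were picked after the values were seen. Idi1 is shown at chr13:8885356-8885605 on the plus strand, Hmgcs1, the gene of HMG-CoA synthase and the list member whose promoter holds a sterol regulatory element, at chr13:119690101-119690350 on the plus strand, and Srebf2 at chr15:82147019-82147268 on the plus strand. Capitals mark CCAAT boxes, written ATTGG where they lie on the other strand, and in Hmgcs1 also the sterol regulatory element TCACNCCAC.
Idi1: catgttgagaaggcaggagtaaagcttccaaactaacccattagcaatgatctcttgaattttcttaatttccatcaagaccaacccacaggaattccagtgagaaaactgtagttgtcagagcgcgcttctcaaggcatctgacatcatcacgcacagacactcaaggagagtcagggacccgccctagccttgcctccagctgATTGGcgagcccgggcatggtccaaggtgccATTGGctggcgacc
Hmgcs1: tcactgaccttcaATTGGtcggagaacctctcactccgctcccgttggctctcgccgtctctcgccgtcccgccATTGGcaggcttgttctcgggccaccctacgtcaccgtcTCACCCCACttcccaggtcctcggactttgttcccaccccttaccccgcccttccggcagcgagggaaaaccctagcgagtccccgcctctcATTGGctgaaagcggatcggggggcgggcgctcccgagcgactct
Srebf2: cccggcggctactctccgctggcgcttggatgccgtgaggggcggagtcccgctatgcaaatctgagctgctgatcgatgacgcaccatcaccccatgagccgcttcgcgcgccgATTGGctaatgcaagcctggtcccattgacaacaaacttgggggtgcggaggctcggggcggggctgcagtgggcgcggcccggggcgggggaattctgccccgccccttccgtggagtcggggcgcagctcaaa

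A CCAAT box, the site of the factor NF-Y, lay on either strand in the stretches of all 14 cholesterol genes that matched the promoter table, of 17 measured, against 37.5% of the 27025 genes in it. In Idi1 the boxes began 45 and 14 bases before the start, in Hmgcs1 237, 176 and 45 bases before it, and in Srebf2 135 bases before it. The letters TCACNCCAC occurred in 1 of the 14, Hmgcs1, where they began 137 bases before the start, and in 1.22% of all genes. The motif TTCNNNGAA, a site of STAT factors, and the interferon response element, read as GAAA, 2 bases of any kind and GAAA, occurred in 1 of the 14 each, against 8.13% and 3.46% of all genes. No motifs overlapped in the stretches shown. A match is a description of letters and not a bound site.

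Idi1, the isomerase that makes the pathway's active isoprene unit, gave 2888 units in jejunum, 4489 in ileum and 2576 in distal colon at 28 months, against 1869, 2399.9 and 1436 units in the same segments at 4 months. All 3 arrays of 28 months lay above all 3 of 4 months, with ratios of 0.63 in jejunum, 0.90 in ileum and 0.84 in distal colon and a mean of 0.79 ± 0.14 (SD, n = 3 segments). Such separation of the ages is stated, here and below, for genes already chosen for 1.5-fold ratios alike in all segments. It is therefore no added support, and its share over all genes was not counted. Fdft1, squalene synthase, gave 1822, 4580.4 and 3611 units at 28 months, against 1141, 2105 and 2147 units at 4 months, in the same order of segments. Its ratios were 0.67, 1.12 and 0.75, the largest in ileum, and the groups overlapped because the jejunum at 28 months lay under the ileum and colon at 4 months. The 3 probe sets of Fdft1 disagreed, with mean ratios from 0.00 to 0.85. Sqle, squalene epoxidase, gave 1551, 3975 and 1872 units at 28 months, against 1009, 1942 and 1228 units at 4 months, with ratios of 0.62, 1.03 and 0.61. Again the ileum at 28 months was the highest of the 6 arrays. Srebf2 gave 752, 1222 and 1009 units at 28 months, against 499.8, 605 and 658 units at 4 months, with ratios of 0.59, 1.01 and 0.62, and all 3 arrays of 28 months lay above all 3 of 4 months. The other probe set of Srebf2 had a mean ratio of 0.18. In limma's fit none of the 4 genes passed, with adjusted p = 0.591 for Idi1, 0.607 for Fdft1 and 0.609 for Sqle and Srebf2.

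**Figure D1:**
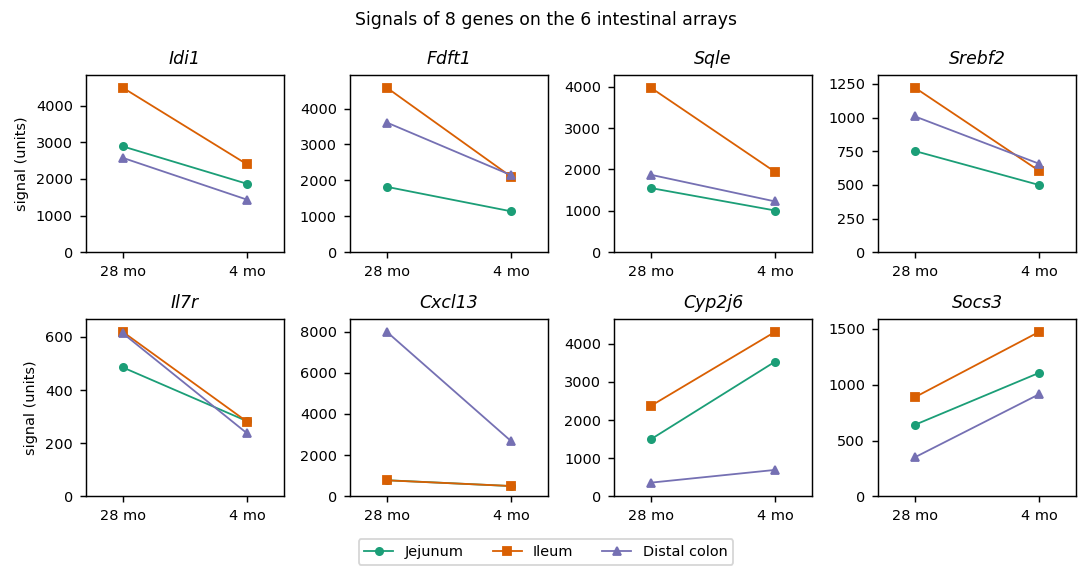
Signals in units on the 6 intestinal arrays for 8 genes, with 28 months on the left and 4 months on the right of each panel; each point is 1 array and a line joins the 2 ages of a segment. The 4 cholesterol genes, Il7r and Cxcl13 slope down to the right in every segment, and Cyp2j6 and Socs3 slope up in every segment.

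The list of cholesterol synthesis held 17 measured enzymes, Idi1, Fdft1 and Sqle among them. Of the other 14, 11 had ratios above 0 in all 3 segments and 0 had ratios below 0 in all 3, where 20.2% and 10.7% of all genes tested did. Their median ratio was 0.22 in jejunum, 0.73 in ileum and 0.33 in distal colon. With the 3 included the median was 0.28 in jejunum, 0.86 in ileum and 0.44 in distal colon, against 0.03, 0.03 and 0.02 over all genes tested, and 0 of the 17 passed limma's adjusted threshold. The ileum was the highest segment in this list, and every one of the 17 was above 0 there and in distal colon, as 54.1% and 53.9% of all genes were. Hmgcs1, which feeds the pathway, gave 6894, 13326 and 7674 units at 28 months, against 5479.6, 7290.5 and 5069.8 units at 4 months, with ratios of 0.33, 0.87 and 0.60. Cyp51, which removes a methyl group from lanosterol, gave 1032, 2725 and 932 units at 28 months, against 749, 1253 and 580.5 units at 4 months, with ratios of 0.46, 1.12 and 0.68. These 2 therefore had the same order of segments as Fdft1 but missed 1.5-fold in jejunum. Fdps, farnesyl diphosphate synthase, had its largest ratio in distal colon instead, at 0.95, with 0.26 in jejunum and 0.81 in ileum. The 3 enzymes below 0 in jejunum act late in the pathway, and they and Hmgcs1 were named after their values were seen. Tm7sf2, a sterol reductase, had ratios of -0.19, 0.89 and 0.18, Ebp, a sterol isomerase, -0.13, 0.00 and 0.21, and Sc5d, a sterol desaturase, -0.38, 0.25 and 0.14. Summed over the list, signals were 29401 units in jejunum, 55347 in ileum and 33121 in distal colon at 28 months, against 24808, 32479 and 23602 units at 4 months.

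Genes of sterol regulation and uptake lay on both sides of 0. Of 14 measured, 3 were above and 11 below 0 in jejunum, where 55% and 42.8% of all genes tested were. In ileum 7 were above and 7 below, against 54.1% and 44.8% of all genes. In distal colon 8 were above and 5 below, against 53.9% and 43.6%. The medians were -0.40 in jejunum, 0.02 in ileum and 0.02 in distal colon. Above 0 in all 3 segments were 2 of them, Srebf2 and Insig1, which retains SREBP proteins in the endoplasmic reticulum. Below 0 in all 3 were also 2, Abca1 and its relative Abcg1. Of all genes 20.2% were above and 10.7% below 0 in all 3 segments. Insig1 and Abcg1 were named after their values were seen. Abca1, which loads cholesterol onto apolipoproteins, gave 1131 units in jejunum, 1607 in ileum and 2424 in distal colon at 28 months, against 2493, 3197 and 3818 units in the same segments at 4 months. The values at 28 months were lower in each segment, with ratios of -1.14, -0.99 and -0.66, and the 2 groups of 3 arrays did not overlap. Taken as the median over its probe sets, the mean ratio of Abca1 was 0. Abcg5, one part of the sterol pump that returns plant sterols to the lumen, gave 3503, 3344 and 686 units at 28 months, against 6881, 6621 and 669 units at 4 months. Its partner Abcg8 gave 859, 718 and 268 units at 28 months, against 1672, 1652 and 225 units at 4 months, so that both were lower at 28 months in jejunum and ileum, with ratios of -0.97, -0.99 and 0.04 for Abcg5 and -0.96, -1.20 and 0.25 for Abcg8. Srebf1, which encodes the regulator of fatty acid synthesis and is a known LXR target, gave 1823, 1701 and 2765 units at 28 months, against 3663, 4570.2 and 2707 units at 4 months and had ratios of -1.01, -1.43 and 0.03. The difference in ratio between small intestine and colon was -1.25 for Srebf1, -1.34 for Abcg8 and -1.02 for Abcg5, and for Npc1l1, the sterol importer, it was -0.86 with colon signals under the floor. None of these differences passed limma's interaction test. Fads2, a desaturase of long fatty acids, lay just under the threshold, with ratios of 0.54, 0.74 and 0.61. The 14 measured genes of fatty acid synthesis had medians of 0.20 in jejunum, 0.55 in ileum and 0.06 in distal colon, with 7 above 0 in all 3 segments and 1 below, where 20.2% and 10.7% of all genes were.

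**Figure D2:**
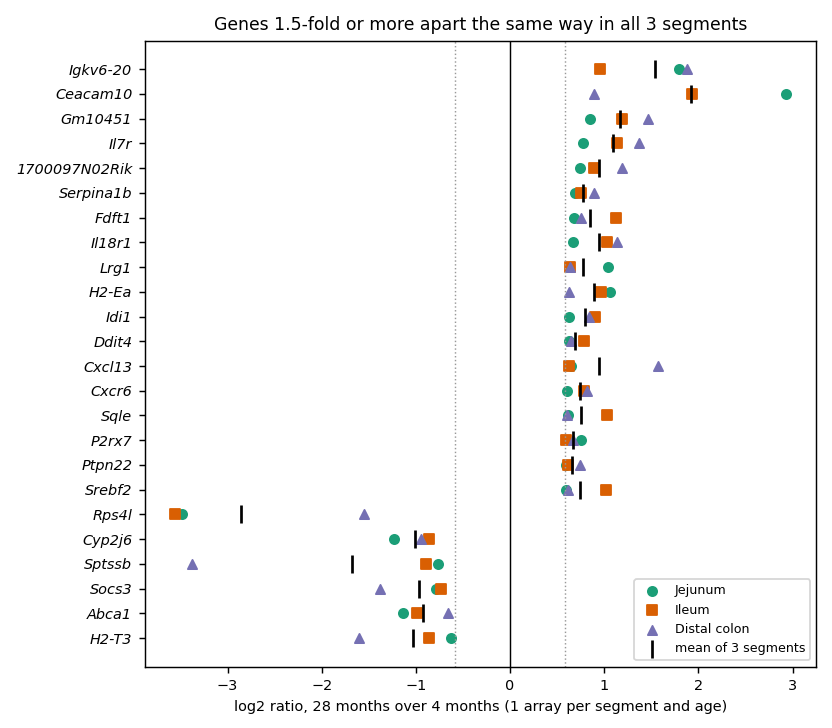
Log2 ratios of 28 over 4 months (horizontal axis) for the 18 genes at least 1.5-fold higher and the 6 at least 1.5-fold lower in all 3 segments; circles are jejunum, squares ileum, triangles distal colon, vertical ticks the mean, and dotted lines 1.5-fold. Most higher genes have their 3 segments within 1 unit of each other, whereas Ceacam10 runs from 0.89 to 2.93 and Sptssb from -3.38 to -0.76.

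Several others of the 18 are genes of lymphocytes or of antigen presentation, set together here after their values were seen. The T cell list held 1 of the 18, Il7r, and the B cell, plasma cell and class II lists held 0. Il7r, the interleukin 7 receptor chain of T cells and innate lymphoid cells, gave 485 units in jejunum, 619 in ileum and 614 in distal colon at 28 months, against 283, 281 and 237 units in the same segments at 4 months. The 3 values at 28 months lay above the 3 at 4 months, with ratios of 0.78, 1.14 and 1.37 and a mean of 1.10 ± 0.30 (SD, n = 3 segments). The other probe set of Il7r had a mean ratio of 0.44, and with the floor at percentile 75 the mean was 0.24. Il18r1, a chain of the interleukin 18 receptor, gave 424, 488 and 274 units at 28 months, against 268, 239 and 125 units at 4 months, with ratios of 0.66, 1.03 and 1.13. Cxcr6, a chemokine receptor of resident lymphocytes, was dimmer and gave 208, 327 and 195 units at 28 months, against 136, 189 and 91.2 units at 4 months, with the young colon under the floor. The other probe set of Cxcr6 had a mean ratio of 0.34. Over the alternative settings, the lowest mean ratio was 0.01 for Il18r1 and 0 for Cxcr6. General T cell genes differed between segments. Of 8 measured T cell genes 6 were above and 2 below 0 in jejunum, where 55% and 42.8% of all genes were. In ileum 1 was above and 7 below, against 54.1% and 44.8% of all genes. In distal colon 7 were above and 0 below, against 53.9% and 43.6%. Above 0 in all 3 segments was 1, Il7r itself, where 20.2% of all genes were. The medians were 0.12 in jejunum, -0.24 in ileum and 0.47 in distal colon. Cd3e, a chain of the T cell receptor complex, had ratios of 0.03, -0.32 and 0.58. In pooled whole tissue, a changed number of cells of a type and a changed amount of RNA per cell cannot be told apart.

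H2-Ea, an alpha chain of MHC class II, gave 1969.8 units in jejunum, 2095 in ileum and 1901 in distal colon at 28 months, against 941, 1072 and 1228 units in the same segments at 4 months, and its groups did not overlap. Among 9 other class II pathway genes 5 were above 0 in all 3 segments and 0 below, where 20.2% and 10.7% of all genes were, with medians of 0.38 in jejunum, 0.36 in ileum and 0.25 in distal colon. Cd74, the invariant chain, had ratios of 0.40, 0.58 and 0.68, and H2-Eb1, a class II beta chain, 0.59, 0.36 and 0.36. Cxcl13, a chemokine for follicular B cells, gave 787 units in jejunum, 782 in ileum and 7984 in distal colon at 28 months, against 503, 506 and 2685 units in the same segments at 4 months. Its colon signal at 28 months was the highest of the 6 by far, and the ratios were 0.64, 0.63 and 1.57. Igkv6-20, a kappa light chain segment, gave 1736, 904 and 408 units at 28 months, against 502, 468 and 74.2 units at 4 months, with the young colon under the floor. A probe set for 1 light chain segment can read its relatives, so this value is uncertain. Plasma cell and immunoglobulin genes were above 0 in all 3 segments in 9 of 17 cases and below in 0, against the same shares of all genes, 20.2% and 10.7%. Their medians were 0.41 in jejunum, 0.05 in ileum and 0.43 in distal colon, and Pou2af1, a B lineage coactivator, had ratios of 1.35, 0.23 and 1.48. Summed signals of that list were 121210.0 units in jejunum, 90238 in ileum and 92111 in distal colon at 28 months, against 92686, 87076 and 69339.5 units at 4 months. Ptpn22, a phosphatase that restrains lymphocyte receptors, had ratios of 0.59, 0.62 and 0.75, and P2rx7, an ion channel opened by extracellular ATP, 0.75, 0.60 and 0.66. These 2 were named after their values were seen, and the lowest mean ratio of each over the alternative settings was 0.

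The other genes of the 18 have no shared role. Ceacam10, a secreted member of the carcinoembryonic antigen family, gave 843 units in jejunum, 1309 in ileum and 1540.4 in distal colon at 28 months, against 75.02, 342 and 829 units in the same segments at 4 months. It was brightest in distal colon at both ages, and the young jejunum lay under the floor. Ddit4, a stress-induced brake on mTORC1, gave 1421, 1698 and 4308 units at 28 months, against 919, 985 and 2757 units at 4 months, with ratios of 0.63, 0.79 and 0.64. Serpina1b, an alpha-1-antitrypsin gene with near-identical relatives, had ratios of 0.69, 0.75 and 0.89. Lrg1, a secreted glycoprotein of the acute phase, had ratios of 1.04, 0.64 and 0.64, and its lowest mean over the alternative settings was 0. Gm10451 and 1700097N02Rik, which carry no functional name in the annotation used, had mean ratios of 1.17 and 0.94, which rest in part on 4-month signals under the floor, and the other probe set of Gm10451 had a mean of 0.02. The members nearest the threshold were Srebf2 and Ptpn22, each with a smallest ratio of 0.59, and just outside it lay Dscc1 at 0.58 and Fads2 at 0.54. With the floor raised to percentile 75 of all signals 8 of the 18 were left, and at 2-fold 0 were. With the median of each gene's probe sets 11 of the 18 remained.

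Of the 6 genes lower in every segment, 4 were read in liver and 4 in spleen. Of these, 1 gene, Rps4l, was also at least 1.5-fold lower in each organ, as 0.524% of all genes were in liver and 1.26% in spleen. Rps4l, a relative of ribosomal protein S4, stood farthest from its 4-month level. It gave 101 units in jejunum, 70.0 in ileum and 77.5 in distal colon at 28 months, against 1235, 1299.7 and 323 units in the same segments at 4 months. All 3 aged arrays lay under the floor, so the ratios of -3.48, -3.55 and -1.55 are bounds, and it was also lower in liver, at -1.99, and spleen, at -0.70. Cyp2j6, a cytochrome P450 of the intestinal epithelium, gave 1497 units in jejunum, 2373 in ileum and 361 in distal colon at 28 months, against 3530.4, 4311 and 695 units in the same segments at 4 months, with a mean ratio of -1.01 ± 0.20 (SD, n = 3 segments). In a list of 21 measured drug metabolism genes 5, Cyp2j6 among them, were below 0 in all 3 segments, as 10.7% of all genes were. H2-T3, which encodes the thymus leukaemia antigen, a non-classical MHC class I protein of gut epithelium, gave 2628, 2425 and 246 units at 28 months, against 4048, 4399 and 749 units at 4 months. The colon was its dimmest segment at both ages, and its ratios were -0.62, -0.86 and -1.61. Sptssb, a small subunit of serine palmitoyltransferase, gave 947, 122 and 41.5 units at 28 months, against 1608, 227 and 1154 units at 4 months, with its colon signal at 28 months under the floor. Its probe sets had mean ratios from -1.68 to -0.61.

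Socs3, a feedback inhibitor of cytokine signalling through JAK and STAT proteins, gave 642 units in jejunum, 889 in ileum and 351 in distal colon at 28 months, against 1107, 1474 and 916 units in the same segments at 4 months. All 3 values at 28 months lay below all 3 at 4 months, the ratios were -0.79, -0.73 and -1.38, and 3 probe sets agreed in sign. Its promoter is shown because it holds a STAT site, the motif TTCNNNGAA in capitals, which began 154 bases before the start. The stretch lies at chr11:117969367-117969616 on the minus strand.
Socs3: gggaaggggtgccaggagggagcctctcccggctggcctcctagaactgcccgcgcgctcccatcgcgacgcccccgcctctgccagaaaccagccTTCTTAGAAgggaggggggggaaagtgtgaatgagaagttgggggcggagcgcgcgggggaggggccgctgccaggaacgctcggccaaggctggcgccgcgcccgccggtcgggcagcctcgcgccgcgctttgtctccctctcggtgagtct

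In liver and spleen Socs3 was higher at 28 months, with ratios of 1.21 and 1.20. The difference between the mean ratio of the intestine and that of liver and spleen was -2.17 (95% interval -2.72 to -1.62), with an adjusted p of 0.601, the lowest in limma's interaction fit. With the floor at percentile 75 the same fit called Socs3 alone, at -2.02 with an adjusted p of 0.0169. Taking the median of each gene's probe sets left 1 of the 6 lower genes past 1.5-fold.

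Among the 10 genes per direction with the lowest p in the block fit were others that missed 1.5-fold in a segment. Gch1, the first enzyme of tetrahydrobiopterin synthesis, gave 766 units in jejunum, 461 in ileum and 289.9 in distal colon at 28 months, against 1425, 885 and 379.9 units in the same segments at 4 months, with ratios of -0.90, -0.94 and -0.39. Hspa1a, an inducible heat shock protein of the HSP70 family, gave 77.2, 147 and 454 units at 28 months, against 199, 273 and 598 units at 4 months, with ratios of -0.85, -0.89 and -0.40. Both lay lower at 28 months in each segment. Of 19 measured heat shock genes 7 were below 0 in all 3 segments and 2 above, where 10.7% and 20.2% of all genes were, with medians of -0.07 in jejunum, -0.13 in ileum and 0.06 in distal colon. Gpat3, an acyltransferase of triglyceride synthesis, had ratios of -0.71, -0.51 and -0.78, and Stom, stomatin of the cell membrane, -0.94, -0.45 and -0.62.

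Small intestine and distal colon differed in direction by 1.5-fold at few single genes. At least 1.5-fold higher in jejunum and ileum and 1.5-fold lower in distal colon were 5 genes (0.0429%), and the opposite held for 4 genes (0.0344%). The interaction test of limma called 0 of 12233 genes (0%), with a lowest adjusted p of 0.670 and 854 genes (6.98%) at an unadjusted p under 0.05, 452 of them higher in small intestine. Adjusted p was 0.670 for each of the 9 genes.

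Retnlb, a goblet cell protein secreted against worms and bacteria, gave 6855 units in jejunum, 11024 in ileum and 5429.9 in distal colon at 28 months, against 3543, 4762 and 8892 units in the same segments at 4 months. At 28 months the small intestine was the brighter site and at 4 months the colon was, with ratios of 0.95, 1.21 and -0.71 and a difference of 1.79. Other goblet cell genes did not split that way: Muc2, the main gel mucin, had ratios of -0.20, 0.48 and -0.49, and 1 of 14 goblet cell genes, Retnlb, was above 0 in small intestine and below 0 in colon, where 15.7% of all genes were. Grem1, a BMP antagonist made by crypt fibroblasts and muscle, gave 425 units in jejunum, 829 in ileum and 516 in distal colon at 28 months, against 238, 525 and 908 units in the same segments at 4 months. Chrdl1, another BMP antagonist, gave 179, 211 and 467 units at 28 months, against 100.4, 135 and 749 units at 4 months, although 1 of its 3 probe sets had a difference of -0.06, and it was named after its values were seen. Bmp5, a BMP ligand, had ratios of 0.56, 0.51 and -0.35. Plat, tissue plasminogen activator, gave 357, 492 and 309.6 units at 28 months, against 224, 252 and 466 units at 4 months, with ratios of 0.67, 0.97 and -0.59. Ces1g, a carboxylesterase that hydrolyses lipids and drugs, gave 1062 units in jejunum, 1065 in ileum and 93.8 in distal colon at 28 months, against 582, 508 and 1139 units in the same segments at 4 months. Its colon signal at 28 months lay under the floor, and the difference of 4.33 was the largest of the 9.

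Bco1, the enzyme that cleaves beta-carotene to vitamin A aldehyde, gave 165 units in jejunum, 304 in ileum and 227 in distal colon at 28 months, against 616, 859 and 104 units in the same segments at 4 months. It was lower in both parts of the small intestine at 28 months and higher in colon, where the young array lay under the floor, with ratios of -1.90, -1.501 and 1.03. Isx, the gut homeobox gene whose product represses Bco1 in mice, gave 1378, 2642 and 97.5 units at 28 months, against 1332, 1897 and 519.7 units at 4 months. Its ratios were 0.05, 0.48 and -2.23, so that in colon Isx had a lower and Bco1 a higher signal at 28 months than at 4 months. Oasl2, an interferon-induced gene, gave 310.3, 292 and 223 units at 28 months, against 518, 547 and 98.9 units at 4 months, with ratios of -0.74, -0.91 and 1.01. Igsf23, of the immunoglobulin superfamily, gave 3042, 2014 and 292 units at 28 months, against 4625, 3935 and 175 units at 4 months, and Nat8f4, an acetyltransferase-family gene, 2223, 2202 and 467 units at 28 months, against 3350.4, 3372 and 209.9 units at 4 months. Both genes were brighter in small intestine than in colon at each age, and the gap between the sites was narrower at 28 months.

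**Figure D3:**
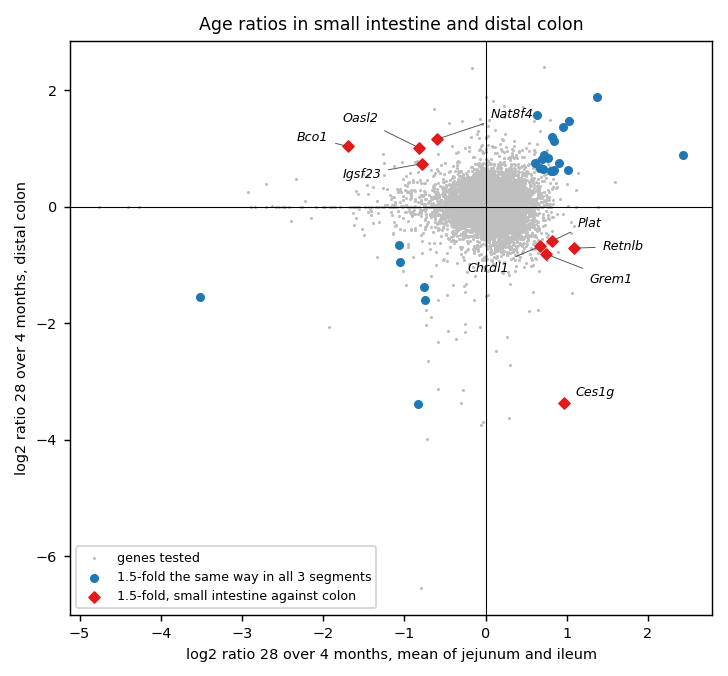
Mean log2 ratio of jejunum and ileum (horizontal axis) against the log2 ratio of distal colon (vertical axis), both 28 over 4 months, for 12233 genes; blue circles are genes past 1.5-fold alike in all 3 segments and red diamonds the 9 past 1.5-fold in opposite directions. The 5 diamonds at lower right include Ces1g, at -3.36 in colon, and the 4 at upper left include Bco1.

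Gene groups of the gut wall separated the colon from the small intestine. All 16 measured smooth muscle genes had a higher age ratio in small intestine than in colon, as 49.7% of all genes did, with a median difference of 0.94 against -0.00 over all genes. Their median ratios were 0.11 in jejunum, 0.74 in ileum and -0.50 in distal colon, so the ratio was larger in ileum than in jejunum, and 0 of the 16 passed the test. Myh11, the smooth muscle myosin heavy chain, gave 2712 units in jejunum, 5309 in ileum and 7805 in distal colon at 28 months, against 2437, 2754 and 13757 units in the same segments at 4 months. Synpo2, an actin-bundling protein of muscle, had ratios of 0.14, 1.00 and -0.92, and Synm, an intermediate filament protein, 0.57, 0.72 and -0.80. Summed signals of the 16 genes were 46455 units in jejunum, 76691 in ileum and 125439 in distal colon at 28 months, against 43319.9, 47564 and 176254 units at 4 months. Extracellular matrix genes had a positive difference in 22 of 23 cases, with a median of 0.60, and 0 passed the test. Their median ratios were -0.04 in jejunum, 0.10 in ileum and -0.65 in distal colon, and all 23 were below 0 in colon, as 43.6% of all genes were. Col1a1, a chain of type I collagen, had ratios of -0.50, -0.03 and -1.36, and Fn1, fibronectin, -0.04, 0.29 and -0.87. In these data the smooth muscle sum moved with the matrix genes in colon and ileum, and its part in their ratios was not tested.

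HOX genes, which mark position along the gut, leaned the same way. Of 15 measured HOX genes, 12 had a positive difference between small intestine and colon, as 49.7% of all genes did, with median ratios of 0.00 in jejunum, 0.44 in ileum and -0.23 in distal colon. The median difference of 0.55 was 0 with the floor at percentile 75. Hoxb3 gave 155, 609.7 and 192 units at 28 months, against 118, 183 and 534 units at 4 months, and Hoxb6 gave 55.0, 506 and 70.0 units at 28 months, against 53.1, 178 and 209 units at 4 months. The ileum at 28 months was the highest array for both. That array also held less of the upper small intestinal genes and more of the smooth muscle genes than the ileum at 4 months, and the part of sampling position was not tested.

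**Figure D4:**
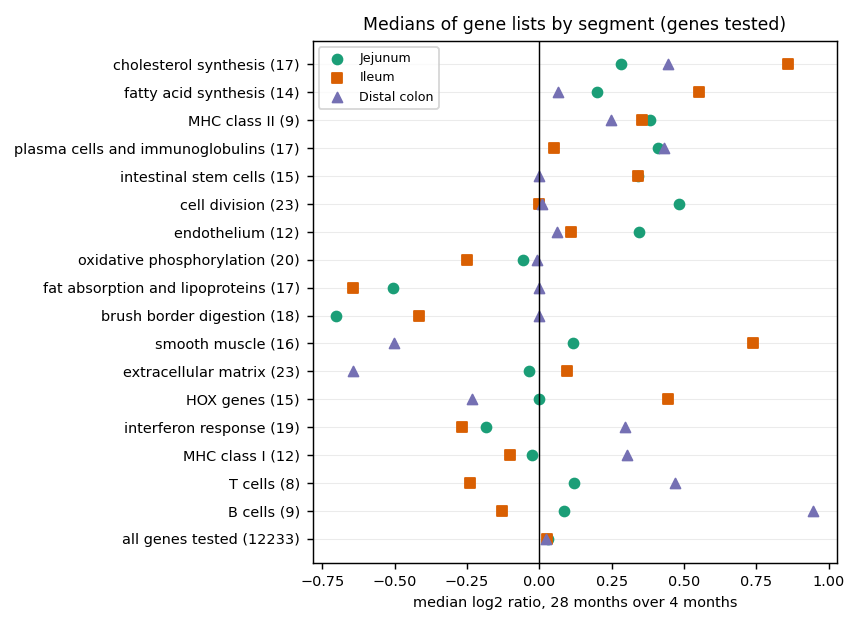
Median log2 ratio of 28 over 4 months in jejunum (circles), ileum (squares) and distal colon (triangles) for 17 gene lists and for all genes tested, with the number of genes tested in brackets. Cholesterol synthesis lies above 0 in all 3 segments, whereas the distal colon is the lowest segment for smooth muscle genes and the highest for B cell genes.

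Among the immune lists, B cell, T cell and MHC class I genes had the opposite sign. So did the median difference of plasma cell genes, at -0.32, cytotoxic lymphocyte genes, at -0.41, and mast cell and eosinophil genes, at -0.47. Chemokine and cytokine genes, at -0.33, and interferon response genes, at -0.56, had it too. Class II genes, at 0.11, and macrophage and dendritic cell genes, at 0.03, did not have it. Neither did the 2 measured granulocyte genes, at 0.07. B cell genes had medians of 0.09 in jejunum, -0.13 in ileum and 0.95 in distal colon, and all 9 had a lower ratio in small intestine than in colon, as 50.3% of all genes did. Ms4a1, the B cell surface protein CD20, gave 112 units in jejunum, 95.4 in ileum and 978 in distal colon at 28 months, against 66.6, 122 and 343 units in the same segments at 4 months. The colon at 28 months was the highest array, and in small intestine the gene lay near the floor at both ages. Ighm, the heavy chain of IgM, had ratios of -0.23, -0.34 and 1.46. The summed signal of the 13 B cell genes on the array was 1920.2 units in jejunum, 1445 in ileum and 5517 in distal colon at 28 months, against 1656, 1915 and 2772 units at 4 months. The highest of these sums was that of the colon at 28 months, the array in which Cxcl13 gave 7984 units. All 8 T cell genes had a negative difference as well, with a median of -0.49, and Cd3g, a chain of the T cell receptor complex, had ratios of -0.02, -0.20 and 1.24. MHC class I pathway genes were negative in 11 of 12 cases, with a median of -0.35. With the floor at percentile 75 the median difference was -0.22 for B cell genes and 0 for T cell genes. In the B cell, T cell and class I lists 0 genes passed the test.

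Interferon response genes had median ratios of -0.18 in jejunum, -0.27 in ileum and 0.29 in distal colon. Of 19 measured, 8 were below 0 in both parts of the small intestine and above 0 in colon, where 14% of all genes were. A negative difference was seen in 16, as in 50.3% of all genes. Ifit1, an antiviral RNA-binding protein, gave 669 units in jejunum, 559 in ileum and 369.6 in distal colon at 28 months, against 1117, 1163 and 268 units in the same segments at 4 months. Usp18, which removes the ubiquitin-like ISG15, had ratios of -0.33, -0.76 and 0.71. Irf1, a transcription factor of interferon signalling, was the 1 member below 0 in all 3 segments, with ratios of -0.40, -0.40 and -0.45. The interferon response element lay within 250 bases before the start of 8 of the 14 interferon genes in the promoter table, against 3.46% of all genes. With the floor at percentile 75 the median difference of the list, -0.56, was 0, and 0 of the 19 passed the test. Il33, an epithelial alarm cytokine, gave 326, 263 and 432 units at 28 months, against 804, 800.1 and 301 units at 4 months, and Il18, which activates interferon gamma release, gave 5145, 2626 and 6151 units at 28 months, against 6849.6, 5411 and 4506 units at 4 months. In both cases the small intestine was lower and the colon higher at 28 months.

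**Figure D5:**
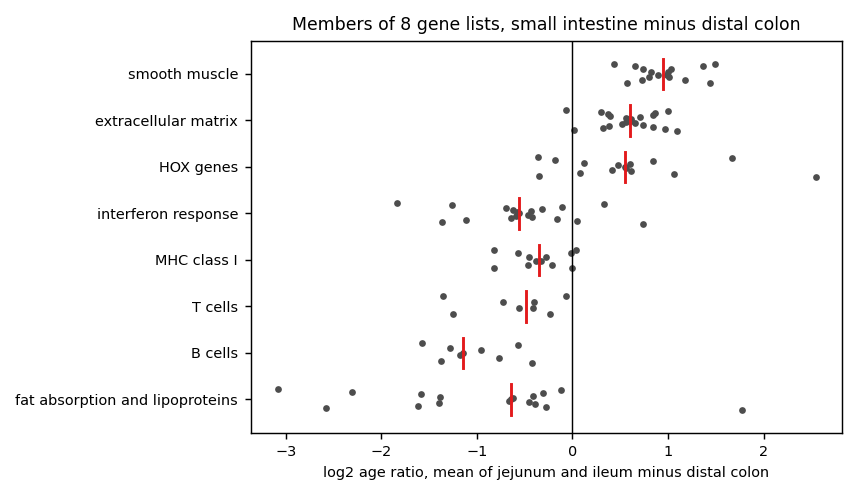
Difference between the log2 age ratio of small intestine (mean of jejunum and ileum) and that of distal colon for the measured members of 8 gene lists; each dot is 1 gene, and red bars are medians, placed at 0.94 for smooth muscle and at -1.15 for B cells. Smooth muscle dots all lie right of 0, and T cell and B cell dots all lie left of 0.

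Genes of fat absorption had lower signals in the aged small intestine. All 17 measured members had ratios below 0 in jejunum and 16 of 17 in ileum, where 42.8% and 44.8% of all genes did, with medians of -0.51 in jejunum, -0.64 in ileum and 0.00 in distal colon. Several are barely expressed in colon, so their ratio there is 0 at the floor. Apoa4, an apolipoprotein of chylomicrons, gave 22509.8 units in jejunum, 5978 in ileum and 63.0 in distal colon at 28 months, against 34761, 35041 and 59.3 units in the same segments at 4 months. Apoc3, another apolipoprotein of triglyceride-rich particles, had ratios of -0.84, -2.41 and 0.00. Fabp2, which binds fatty acids in enterocytes, was the 1 member not below 0 in ileum, with ratios of -0.51, 0.01 and -2.02. Apob, the scaffold of chylomicrons, gave 12017, 14014 and 1699.6 units at 28 months, against 19599.6, 20781 and 533 units at 4 months, so that in colon it was higher at 28 months. Ileal ratios of this list lay beside the low upper small intestinal genes of the aged ileum, whose part was not tested. Apoa4 is also one of those upper small intestinal genes, so the sets are not separate. The jejunal sum of the upper small intestinal genes was 86991 units at 28 months against 120625 units at 4 months. The 18 measured digestive enzymes and transporters of the brush border had medians of -0.70 in jejunum, -0.41 in ileum and 0.00 in distal colon. Below 0 were 17 in jejunum, 11 in ileum and 8 in distal colon, against 42.8%, 44.8% and 43.6% of all genes. In all 3 segments 2 were below 0, near the share of all genes, 10.7%. Genes of oxidative phosphorylation were below 0 in all 20 cases in ileum and in 18 of 20 in jejunum, against 44.8% and 42.8% of all genes. In all 3 segments 9 were below 0, against 10.7%. A lower ratio in small intestine than in colon was seen in 19, against 50.3% of all genes. Their medians were small, at -0.06 in jejunum, -0.25 in ileum and -0.01 in distal colon.

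Crypt stem cell genes had higher signals in the aged small intestine. Of 15 stem cell genes 13 were above 0 in jejunum and 12 in ileum, against 55% and 54.1% of all genes. In all 3 segments 7 were above 0 and 1 below, against 20.2% and 10.7%, and the medians were 0.34 in jejunum, 0.34 in ileum and 0.00 in distal colon. Axin2, a Wnt target, had ratios of 0.50, 0.49 and 0.22, and Znrf3, which removes Wnt receptors, 0.71, 0.66 and 0.14. Lgr5, the stem cell receptor for R-spondins, had ratios of 0.12, 0.58 and 0.74, the largest of them in colon. All 23 measured cell division genes were above 0 in jejunum, as 55% of all genes were, with medians of 0.48 in jejunum, -0.00 in ileum and 0.01 in distal colon. Nusap1, a spindle protein, gave 1032, 809 and 607 units at 28 months, against 632, 711 and 578 units at 4 months. Endothelial genes were above 0 in jejunum in 12 of 12 cases, and Vwf, von Willebrand factor, gave 391, 419 and 481 units at 28 months, against 195, 236 and 441 units at 4 months.

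The antimicrobial lectin Reg3b had the lowest colon ratio of all genes in the lists. It gave 6079 units in jejunum, 37729.6 in ileum and 82.7 in distal colon at 28 months, against 18206, 37929 and 10366 units in the same segments at 4 months, so the colon at 28 months lay under the floor and the ileum had a ratio of -0.01. Reg3g, its close relative, gave 5546, 27317 and 78.3 units at 28 months, against 13796, 29635 and 1751 units at 4 months. B4galnt2, a glycosyltransferase of the gut epithelium, gave 10637, 14346 and 445 units at 28 months, against 11821, 13518 and 5781 units at 4 months, and Ugt2b5, a glucuronosyltransferase, 6209, 1637 and 21.8 units at 28 months, against 4169, 1599.8 and 729 units at 4 months. Slc5a12, a lactate transporter, ran the other way: it gave 21.6, 212 and 17.7 units at 28 months, against 2597, 3353 and 20.5 units at 4 months, with the colon under the floor at both ages. The part of sampling position in the values of these genes was not tested.

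Liver and spleen of the same mice were set beside the intestine. Of the 18 genes higher in all 3 segments, 10 were above the floor in liver, where 6 were at least 1.5-fold higher too, as 3.34% of all genes were. In spleen 17 were above the floor and 3 were at least 1.5-fold higher, as 2.42% of all genes were. Sqle had ratios of 2.23 in liver and 0.41 in spleen, and Idi1 of 1.24 and 0.26. The median of the cholesterol synthesis list was 0.88 in liver and 0.11 in spleen. Il7r, Il18r1 and Cxcr6 were not read in liver, and in spleen their ratios were 0.04, -0.17 and -0.29. Limma's interaction fit of intestine against liver and spleen called 0 genes (0%) at an adjusted p under 0.05 and held 726 (5.93%) at an unadjusted p under 0.05. Cyp39a1, an oxysterol hydroxylase, had a difference of 1.82 with an adjusted p of 0.791, and ratios of 0.47, 0.93 and 0.65 in the segments, -0.80 in liver and -1.47 in spleen. Leaving out spleen gave 2 calls lower in the intestine, Lcn2 and Moxd1, and leaving out liver gave 15 calls higher in it, most of them genes of pancreatic enzymes such as Cela2a and Cpa1. The young spleen array carried pancreatic genes, with Cela2a at 57.4 units in spleen at 28 months and 8306 units at 4 months, and the part of those cells in these calls was not tested.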

How the data were processed

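RNA pooled from the mice of an age was read on 10 arrays, and jejunum, ileum and distal colon at 28 and 4 months held 1 array each. The authors deposited log2 values, 1 for each probe set, normalised by a method not given in the sources used here. Per the submitters' processing notes the tools were MAS5 and affy, without version. For this report signals were unlogged and scaled to a mean of 500 after trimming 2% at each end. Anything dimmer than the overall median of 111 units was set equal to it, which is called the floor. Each of 18194 genes was read by its brightest probe set over the 10 arrays, named through the platform's annotation. Arrays carry no counts, so precision is limited by their number.

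Ratios of 28 over 4 months were taken within segments, over 11643 genes above the floor at either age in each segment. Limma 3.58.1 in R 4.3.3 tested 12233 genes with mean log2 signal above the floor, with segment as block and Benjamini-Hochberg adjustment. Interaction terms compared small intestine with colon, and intestine with liver and spleen. Segments stood in for replicates, so p-values measure the spread between segments of the same pools. Tables were made with Python 3.11.15, numpy 2.4.6 and pandas 2.3.3, and figures with matplotlib 3.10.9. The computations were tested on simulated data.

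Members and the 49 gene lists were chosen with earlier results of these data known. Genes named were up to 15 per direction past 1.5-fold alike in all segments, and up to 12 per direction past 1.5-fold in opposite directions. Both needed a brightest signal of at least 2 floors and probe sets of 1 sign, and ranked by the smallest ratio. Up to 4 members per list by mean ratio and 4 by difference, up to 10 per limma fit and direction by lowest p, and tissue markers were also named. Exceptions are stated where they occur. Alternatives covered the floor, an offset of 16 units, scaling, the probe set rule, the fold threshold, the moderation, the filter, the segment block and leaving out each tissue.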

Additional observations from a re-analysis of the deposited data

Results flagged for a closer look

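For 9 genes jejunum and ileum lay on one side of 4 months and distal colon on the other, each by at least 1.5-fold. The difference between the mean log2 age ratio of jejunum and ileum and that of distal colon was 4.33 for Ces1g, 1.79 for Retnlb and 1.56 for Grem1. It was 1.41 for Plat and 1.35 for Chrdl1, and in these 5 genes the small intestine was higher and the colon lower at 28 months. The sign was opposite for Bco1, at -2.73, Oasl2, at -1.83, Nat8f4, at -1.76, and Igsf23, at -1.52. These differences were tested by limma's interaction term, and none of the 9 passed, with an adjusted p of 0.670 for each. Ces1g, Bco1 and Oasl2 each had a colon signal under the floor at 1 age, and Chrdl1 had a jejunum signal at 4 months under it, so their differences are bounds.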

How the results depend on the processing

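The ages were paired by segment, the block of limma's age fit. Without the segment block that fit called 0 genes and held 110 at an unadjusted p under 0.05, against 971 with the block. The 18 genes higher in all 3 segments numbered 8 with the floor at percentile 75, 0 at 2-fold and 98 at a threshold of 0.32 on the log2 scale, and with the median of each gene's probe sets 18 were counted, 11 of them shared. The 6 lower genes numbered 3, 1 and 48 under these settings, and 1 with the median of each gene's probe sets. The 5 genes higher in small intestine and lower in colon numbered 2, 0 and 64, and 3 with that median. The 4 genes of the opposite kind numbered 0, 1 and 49. Leaving out a segment asks for fewer segments and gave 38 to 58 higher genes and 22 to 139 lower genes. Leaving out jejunum or ileum gave 6 to 75 genes higher in the other small intestinal segment and lower in colon. It gave 14 to 23 genes of the opposite kind. Under scaling to equal medians, quantile normalisation, an offset of 16 units and a floor at percentile 25, all 4 counts stayed within 1.5 times of those reported.

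Limma's age fit called 1 gene, Igkv6-20, without ileum, at 1.83 with an adjusted p of 0.0400, and 0 under the other alternatives. Its interaction of small intestine with colon called 0 genes under every alternative run, and leaving out a segment left it no degree of freedom. For intestine against liver and spleen, the floor at percentile 75 gave 1 lower gene, Socs3, and no filter gave 2, Fabp7 and Hbb-b2. Leaving out 1 tissue gave 0 to 15 higher genes and 0 to 2 lower genes. Of 263 values for the 24 genes alike in all segments, 242 moved by less than the spread between segments and 0 reversed. Of 88 values for the 9 genes of opposite direction, 70 did so. The limma difference of Prkg2 between small intestine and colon reversed to -0.38 with the floor at percentile 75, and the cause was not tested. Signal over background limits dim genes, whose ratios shrink towards 0 as the floor is raised.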

Other observations

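Mannose receptor and scavenger genes of resident macrophages differed between sites. Mrc1, the mannose receptor, gave 373 units in jejunum, 576 in ileum and 575 in distal colon at 28 months, against 294, 326 and 1147 units in the same segments at 4 months. Cd163, which takes up haemoglobin, gave 104, 386 and 473 units at 28 months, against 127, 226 and 823 units at 4 months in jejunum, ileum and distal colon. The 17 measured macrophage and dendritic cell genes as a list had medians of 0.28 in jejunum, -0.13 in ileum and -0.03 in distal colon, so these 2 were not typical of it. Among gut hormones Nts, neurotensin, gave 67.9, 6628 and 42.2 units at 28 months, against 2081, 5124 and 463 units at 4 months, and Insl5, a peptide of colonic endocrine cells, gave 46.6, 332 and 3939.9 units at 28 months, against 48.9, 117 and 1998 units at 4 months. The Paneth cell defensin gene Defa31 gave 356, 58582 and 144 units at 28 months, against 14837, 53403 and 144 units at 4 months. Defensin genes are near-identical copies, and its value is uncertain.

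Jejunum and ileum, both small intestine, also differed in direction. At least 1.5-fold higher in jejunum and lower in ileum at 28 months were 5 of 11643 genes (0.0429%), and 19 genes (0.163%) were lower in jejunum and higher in ileum. Outside the gene annotation, 1721 of 9160 probe sets lay above the floor in all 3 segments, of which 15 were at least 1.5-fold higher in all 3 at 28 months and 0 at least 1.5-fold lower. Among the 11643 annotated genes, each read by 1 probe set, 18 (0.155%) were higher and 6 (0.0515%) lower.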
